A study of Homo sapiens with 8 samples.

Results

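The 2 neuroblastoma lines NB1691 and SK-N-BE(2) (written SKNBE2 in the labels) were compared on 4 of the series' 8 arrays, gene by gene and separately after vehicle and after ciclopirox. A gene was taken as a treatment-independent line difference when it differed the same way by at least log2 1, that is 2-fold, in the vehicle pair and in the ciclopirox pair. By this rule 2067 of 14517 tested genes differed, 1179 of them higher in NB1691 (8.12% of tested genes) and 888 higher in SK-N-BE(2) (6.12%). In each line 1 array came from cells given vehicle for 48 h and 1 from cells given 2.5 µM ciclopirox for 48 h, an iron-binding antifungal drug abbreviated CPX in the labels. Both lines carry the label N-Myc, both were grown in RPMI medium with serum, and RNA was prepared with an RNeasy kit and labelled by 3' in vitro transcription. The other 4 arrays hold SKNAS, labelled c-Myc, and SKNAS/shHIF1a, a stable HIF1A knockdown of SKNAS, each with vehicle and with ciclopirox. Nothing in the labels names separate cultures, and each line is a single established line, so the spread between these arrays may be technical and a difference describes these lines as grown here.

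Neuroblastoma is a childhood tumour of the sympathoadrenal branch of the neural crest, and its cells often keep the transcription factors and catecholamine enzymes of that branch. Amplification of MYCN, a transcription factor of the MYC family, marks a high-risk form of the disease, and lines with the same high MYCN can differ widely in their other genes. MDM2 is the ubiquitin ligase that holds p53 in check, and CDK4 is the cyclin D kinase that drives cells out of G1. The neural crest origin is also the source of the neuropeptide, adhesion and axon guidance genes that such lines express to different degrees.

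MYCN itself read 12.05 and 11.77 in NB1691 and 12.48 and 12.53 in SK-N-BE(2) (log2 RMA signal, here and below with vehicle first and ciclopirox second). It averaged 3.07 in SKNAS and 5.53 in SKNAS/shHIF1a, whose own label of N-Myc stands beside a mean MYC level of 9.54. MYC read 2.70 and 3.28 in NB1691 and 2.66 and 3.28 in SK-N-BE(2). Both lines were thus high for MYCN and low for MYC on every array, and neither gene differed between them past the threshold (MYCN difference NB1691 minus SK-N-BE(2) -0.60, SE 0.24, limma adjusted p = 0.124; MYC 0.02, SE 0.45, adjusted p = 0.98). Of the noradrenergic markers, 7 of 8 were on the array and 6 of them stood at log2 6 or more in both lines, namely PHOX2A, GATA3, ISL1, TH, DBH and CHGA. Of 6 mesenchymal neuroblastoma markers, 4 also stood there in both lines, and PRRX1 and YAP1 did not. The means in NB1691 and SK-N-BE(2) were 12.05 and 10.94 for VIM, 8.46 and 7.27 for FN1, 11.39 and 11.47 for TWIST1, and 8.41 and 6.06 for CD44. A wider mesenchymal list of 35 tested genes was divided. By the 2-fold rule 4 were higher in NB1691 (CD44, TNC, SPARC and FN1) and 3 in SK-N-BE(2) (IFI16, MAML2 and S100A6). The limma fit described below called 2 higher in NB1691 and 4 in SK-N-BE(2), and the list median was 0.24. None of the 3 glial, 4 lymphoid or myeloid, 5 epithelial and 4 endothelial defining markers on the array reached a mean of log2 6 in either line, although the keratin KRT5, from a wider epithelial list, did in NB1691. Of 6 fibroblast markers 3 reached it in each line: COL1A1 (7.97), LUM (7.44) and THY1 (9.05) in NB1691, and DCN (8.61), LUM (8.78) and THY1 (9.47) in SK-N-BE(2), as means of the 2 arrays. Their summed linear signal ran from 989.9 to 1026 in NB1691 and from 1358 to 1872 in SK-N-BE(2), and its part in the collagen and matrix results below was not tested.

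A limma fit over all 8 arrays, with line and treatment as terms, called 1868 genes higher in NB1691 (12.9% of those tested) and 1772 higher in SK-N-BE(2) (12.2%) at an adjusted p under 0.05. Counts called by gene list below are to be read beside these shares, and 2-fold counts beside 8.12% and 6.12%. The residual spread in this fit, with 3 residual degrees of freedom, mixes uneven responses of the lines to treatment with variation between arrays and cultures, which cannot be told apart here. Of the genes at least 2-fold apart in both pairs, 1135 of 1179 and 853 of 888 were among those called, while 1652 called genes missed the 2-fold limit in at least 1 pair. The rule and the fit read the same 4 arrays, so this share, the adjusted p of a gene chosen by its difference and the separation of its arrays are descriptions and no independent support. Refits that each left out 1 of the 4 arrays called between 948 (without SK-N-BE(2) vehicle) and 1494 genes higher in NB1691, and 1006 without SK-N-BE(2) ciclopirox. In the other direction they called between 653 (without SK-N-BE(2) ciclopirox) and 1397, with 828 without SK-N-BE(2) vehicle and 1132 without NB1691 ciclopirox. Among 210 named genes that were called, 157 stayed called in all of these refits, and a call lost in a refit is given beside the adjusted p wherever one is printed for that gene.

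Large differences were more often towards NB1691. Both pairs differed by at least log2 3 for 243 genes higher in NB1691 and 106 higher in SK-N-BE(2), and by at least log2 5 for 45 and 17. The median size of the mean difference was 2.03 for the first set and 1.77 for the second. Both arrays of the lower line lay below the level filter (log2 3.21) for 213 of the genes higher in NB1691 (18.1%) and for 59 of those higher in SK-N-BE(2) (6.64%). For genes with the lower line below the filter, the array gives the size of the difference only down to its background.

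**Figure D1:**
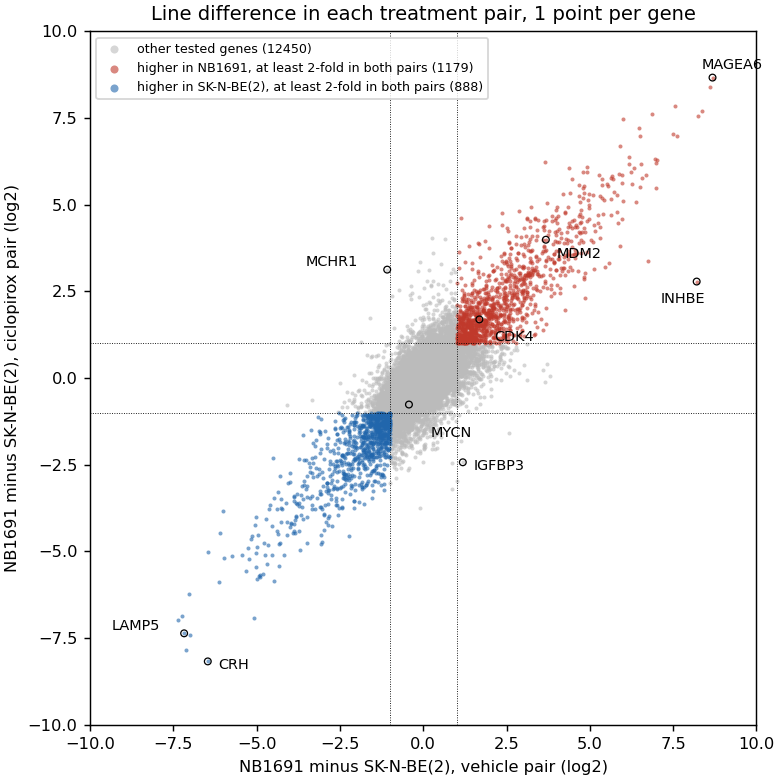
Line difference (NB1691 minus SK-N-BE(2), log2) of each tested gene in the vehicle pair (x axis) against the ciclopirox pair (y axis). Red points are the 1179 genes at least 2-fold higher in NB1691 in both pairs, blue points the 888 higher in SK-N-BE(2), grey points the rest, and dotted lines mark log2 1. MAGEA6 lies at the upper right end and CRH at the lower left, and INHBE (8.21 against 2.78) lies off the diagonal.

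The largest measured differences were those of cancer-testis antigens, proteins normally made in germ cells and made by many tumours. MAGEA6 read 11.36 and 11.35 in NB1691 and 2.68 and 2.69 in SK-N-BE(2). MAGEA12 read 11.13 and 11.20 against 2.53 and 2.83. Both were high on each NB1691 array and below the level filter of log2 3.21 on each SK-N-BE(2) array. The mean differences were 8.67 (SE 0.26) for MAGEA6 and 8.49 (SE 0.29) for MAGEA12, each with a limma adjusted p of 9.73e-05, and with SK-N-BE(2) at background no fold is given and their rank holds only for the measured values. They are neighbours on chromosome X, in a run of 6 tested genes that were all at least 2-fold higher in NB1691 in both pairs: MAGEA5P, MAGEA10, GABRA3, MAGEA12, CSAG3 and MAGEA6. CSAG3, another cancer-testis gene, was picked out after its values were seen and read 9.81 and 9.83 in NB1691 and 3.27 and 3.66 in SK-N-BE(2). MAGE-A genes are near-identical copies, so a probe set may catch more than 1 of them and their separate levels are uncertain. The start regions of 3 of these genes are shown because MAGE-A promoters are known to be switched by methylation of their CpG sites, and because the neighbours differed together. They are 300-base windows that run from upstream of the start to just past it, from RefSeq on GRCh38.p14, 5' to 3', with each CpG in capitals: MAGEA6 at chrX:152769640-152769939 (minus strand), MAGEA12 at chrX:152733507-152733806 (plus) and CSAG3 at chrX:152753671-152753970 (plus).
MAGEA6: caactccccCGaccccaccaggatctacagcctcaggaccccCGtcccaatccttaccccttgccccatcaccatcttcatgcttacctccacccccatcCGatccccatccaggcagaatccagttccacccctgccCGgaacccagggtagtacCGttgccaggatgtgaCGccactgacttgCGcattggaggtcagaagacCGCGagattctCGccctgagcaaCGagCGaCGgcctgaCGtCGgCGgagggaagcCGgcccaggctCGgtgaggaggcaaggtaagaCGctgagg
MAGEA12: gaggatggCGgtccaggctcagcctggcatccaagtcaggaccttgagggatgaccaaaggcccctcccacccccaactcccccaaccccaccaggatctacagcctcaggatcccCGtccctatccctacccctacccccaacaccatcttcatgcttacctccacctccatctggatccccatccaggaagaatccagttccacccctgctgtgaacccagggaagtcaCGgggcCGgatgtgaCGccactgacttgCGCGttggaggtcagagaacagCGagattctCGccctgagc
CSAG3: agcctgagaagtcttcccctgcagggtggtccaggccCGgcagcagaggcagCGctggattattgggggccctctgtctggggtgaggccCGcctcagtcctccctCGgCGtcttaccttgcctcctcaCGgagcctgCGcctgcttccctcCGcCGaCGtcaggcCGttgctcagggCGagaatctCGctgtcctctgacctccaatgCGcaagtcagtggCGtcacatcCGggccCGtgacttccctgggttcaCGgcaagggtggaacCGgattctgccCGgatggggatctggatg
The windows hold 19, 9 and 20 CpG sites. Local alignment matched 203 of 225 aligned bases between MAGEA6 and MAGEA12 (90.2%). Read in the opposite direction, the CSAG3 window matched MAGEA6 at 175 of 191 bases (91.6%) and MAGEA12 at 120 of 130 (92.3%). The letters GGAAG or, on the other strand, CTTCC occurred 1, 2 and 3 times, and 71.9% of 35116 windows of this length hold them. Methylation was not measured. Across the genes that differed, the median CpG count of the start windows was 25 for the 920 matched genes higher in NB1691, 24.4 for the 690 higher in SK-N-BE(2) and 25 for all 11665 matched tested genes.

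Of 53 listed cancer-testis genes, 36 were on the array and 20 passed the level filter and were tested. That filter used the mean over all arrays, so a gene at background in most lines was tested only where another line raised its mean. This favours genes high in some line, so the median and counts cannot be set directly against those of all tested genes. Of the 20, 9 were called and also at least 2-fold higher in NB1691 in both pairs and 1 in SK-N-BE(2). The median difference of the 20 was 1.46, and that over all tested genes was -0.02. Refits without 1 array called 9 or 10 of the 20 higher in NB1691. Besides the MAGE-A genes these were PRAME, SSX1, SSX3 and NXF2. PRAME, a repressor of retinoic acid receptor signalling, read 11.50 and 11.27 in NB1691 and 6.70 and 5.32 in SK-N-BE(2), a difference of 5.37 (SE 0.31, limma adjusted p = 0.000232). It was also high in SKNAS (mean 10.10), whereas MAGEA6 averaged 4.88 there. MAGEA10 read 6.79 and 6.72 against 2.72 and 2.79 and averaged 2.63 in SKNAS and 2.74 in SKNAS/shHIF1a. The gene of the list that was 2-fold higher in SK-N-BE(2) was TEX15, needed for meiotic recombination.

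Outside that family, SYTL4, which docks secretory vesicles through RAB27, read 11.02 and 10.52 in NB1691 and 2.65 and 2.83 in SK-N-BE(2). DNAJC15, a mitochondrial co-chaperone, read 10.80 and 10.73 against 3.23 and 2.90. FAM162B read 10.75 and 10.29 against 2.51 and 2.74. In all 3 genes the lines were separated by more than log2 7 in each pair, and SK-N-BE(2) lay near background. The differences were 8.03 (SE 0.27) for SYTL4, 7.70 (SE 0.37) for DNAJC15 and 7.89 (SE 0.50) for FAM162B. DNAJC15 was also high in SKNAS (mean 10.18), and SLC25A24, a mitochondrial ATP-Mg/phosphate carrier, read 9.79 and 9.77 against 3.61 and 3.59 and averaged 10.40 in SKNAS. The other probe set of SLC25A24 did not share the sign, and the same holds for MEIOC, a meiosis gene that read 9.06 and 9.45 against 2.55 and 2.47. DSCR8, NLGN4X, RTN1, KRT17P5, SNX10 and TPM2, with RAB3IP and KCNMB4 from chromosome 12 below, completed the 15 largest, whose smaller pair difference was log2 6.18 or more. KRT17P5 is a keratin pseudogene, and its signal of 9.86 and 9.10 in NB1691 is uncertain because near-identical relatives may share the probes.

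In SK-N-BE(2), LAMP5, a lysosome-associated membrane protein of neurons, read 11.09 and 10.77 against 3.91 and 3.41 in NB1691. BCHE, butyrylcholinesterase, which hydrolyses choline esters, read 10.80 and 10.52 against 3.66 and 2.67. PEG10, a gene of retrotransposon origin expressed from the paternal copy, read 10.28 and 10.30 against 2.91 and 3.32. These genes were at background or a little above it in NB1691, and no array of one line came near the other. The differences were -7.27 (SE 0.33) for LAMP5, -7.49 (SE 0.26) for BCHE and -7.18 (SE 0.17) for PEG10, with limma adjusted p of 0.000117, 9.8e-05 and 9.73e-05. IL13RA2, a decoy receptor for interleukin 13, read 10.32 and 10.53 against 3.32 and 3.12. EDIL3, an integrin ligand of the matrix, read 10.33 and 10.37 against 3.07 and 3.52. Both were high in SKNAS too, with means of 12.54 for IL13RA2 and 8.64 for EDIL3. ABCG1, a sterol exporter, and LEF1, a nuclear partner of beta-catenin, were unlike these in being near background in SKNAS: ABCG1 averaged 2.93 there and LEF1 2.86. ABCG1 read 7.81 and 8.46 in SK-N-BE(2) against 2.49 and 2.89, and LEF1 read 8.16 and 8.03 against 2.93 and 2.81.

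**Figure D2:**
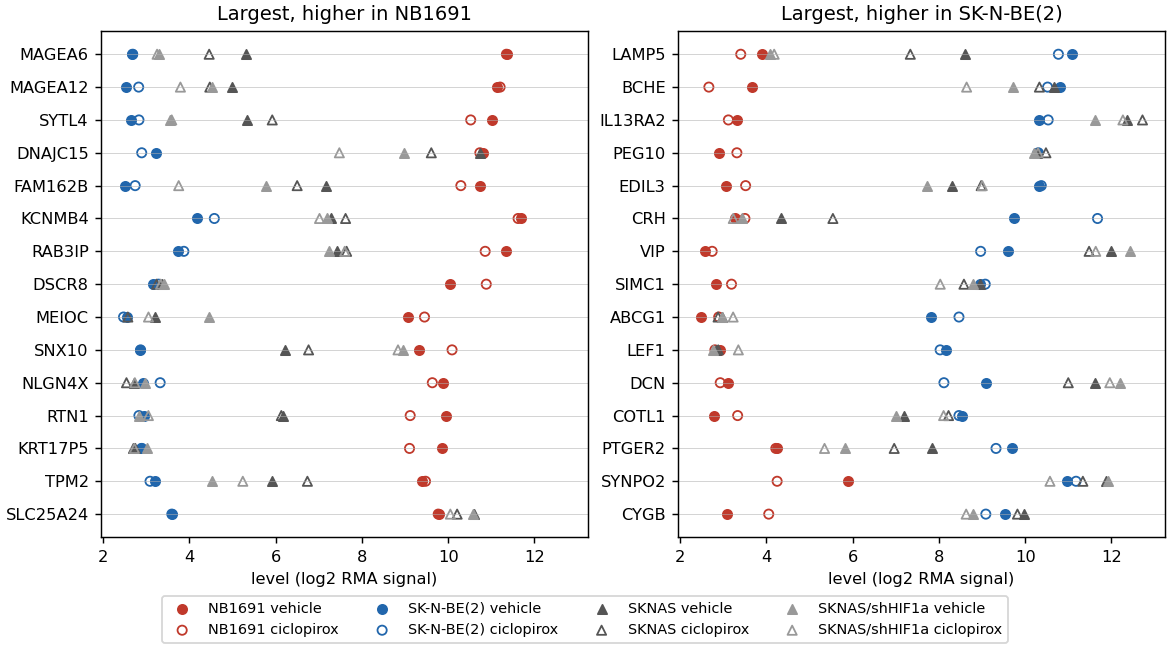
Level (log2 RMA signal, x axis) of the 15 genes with the largest difference in each direction on each of the 8 arrays, 1 gene per line. Circles are NB1691 (red) and SK-N-BE(2) (blue), triangles SKNAS and SKNAS/shHIF1a, filled for vehicle and open for ciclopirox. The red and blue circles are apart by the choice of genes, and the triangles lie with NB1691 for some genes (SLC25A24), with SK-N-BE(2) for others (PEG10) and between them for others (KCNMB4).

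The longest runs of neighbouring genes that differed lay on chromosome 12. Along the annotation order from PRIM1 to KCNMB4, 82 genes were tested, of which 45 were at least 2-fold higher in NB1691 in both pairs, 1 (SRGAP1) at least 2-fold higher in SK-N-BE(2), and 36 neither. In 42 of the 82 both pairs exceeded log2 2, and in 26 they exceeded log2 3. MDM2 read 12.61 and 12.84 in NB1691 and 8.93 and 8.85 in SK-N-BE(2), a difference of 3.83 (SE 0.20, 14.2-fold, limma adjusted p = 0.000185), and all 6 of its other probe sets went the same way. CDK4 read 12.93 and 12.86 against 11.25 and 11.17, a difference of 1.69 (SE 0.21, 3.22-fold, adjusted p = 0.00328). CDK4 was thus among the smaller differences in its surroundings: TSPAN31, the next gene, differed by 4.46 and 4.33 and CYP27B1, the vitamin D activating hydroxylase, by 5.30 and 4.36. In SKNAS the means were 8.51 for MDM2 and 11.03 for CDK4, close to SK-N-BE(2).

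The pattern along this stretch was broken. From PRIM1, the DNA primase subunit (2.84 and 2.86), 7 neighbours in a row were higher in NB1691, through HSD17B6, RDH16, ZBTB39, TAC3 and NEMP1 to NAB2. STAT6 (0.69 and 1.08) missed the limit, LRP1 (2.44 and 2.79) met it, and then SHMT2, COXFA4L2, STAC3, R3HDM2, INHBC, GLI1, MARS1 and DDIT3 did not meet the rule, although ARHGAP9 between them did. INHBE, an inhibin subunit gene known to rise in the integrated stress response and picked out after its values were seen, met it with the least even pairs of the stretch. It read 10.96 and 11.57 in NB1691 and 2.75 and 8.79 in SK-N-BE(2), so the vehicle pair differed by 8.21 and the ciclopirox pair by 2.78, and it was not called (limma adjusted p = 0.0663). From MBD6 to OS9 all 9 tested neighbours differed, and from AGAP2-AS1 to CTDSP2 all 10, with median differences of 3.66 and 4.18, AGAP2 (1.48 and 0.98) falling just short between them. After LOC283387 (0.66 and 0.38), GIHCG, ATP23 and LRIG3 differed again, and ATP23, a mitochondrial protease and assembly factor, read 12.04 and 11.76 in NB1691 and 7.35 and 6.20 in SK-N-BE(2). Beyond LRIG3, single genes met the rule between neighbours that did not: PPM1H (4.07 and 3.52), TBC1D30 (4.18 and 3.18), MSRB3 (3.91 and 2.44) and GRIP1 (4.97 and 4.58). HMGA2 between them differed by -0.15 and 0.10, and SRGAP1, between PPM1H and TBC1D30, was higher in SK-N-BE(2) (-1.06 and -2.08).

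At the far end SLC35E3, MDM2 and CPM formed a run of 3, CPSF6 (-0.69 and -0.77) interrupted it, and YEATS4, CCT2, BEST3, RAB3IP, CNOT2 and KCNMB4 formed a run of 6. CPM, a membrane carboxypeptidase, read 8.89 and 8.15 in NB1691 and 2.64 and 2.55 in SK-N-BE(2). RAB3IP, an exchange factor for RAB8, read 11.35 and 10.86 against 3.74 and 3.87. KCNMB4, the neuronal beta subunit of the BK potassium channel, read 11.68 and 11.62 against 4.17 and 4.58. The last of these were among the 15 largest differences of the whole comparison, at 7.30 (SE 0.24) for RAB3IP and 7.27 (SE 0.21) for KCNMB4, both with limma adjusted p of 9.73e-05. CNOT2, a subunit of the mRNA deadenylase complex that is well expressed in every line, still differed by 3.41 and 3.36, and the chaperonin subunit CCT2 by 1.35 and 1.57. Directly after KCNMB4 the tyrosine phosphatase PTPRB differed by 0.02 and -0.26. Of a list of 31 tested neighbours of CDK4, 22 were called higher in NB1691 (20 to 22 in refits without 1 array) with a median of 3.22, and of 23 tested neighbours of MDM2, 10 were called (10 or 11) with a median of 0.43. The second median was 0.16 without NB1691 vehicle, 0.70 without NB1691 ciclopirox, 0.10 without SK-N-BE(2) vehicle and 0.66 without SK-N-BE(2) ciclopirox. DNA copy number was not measured.

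**Figure D3:**
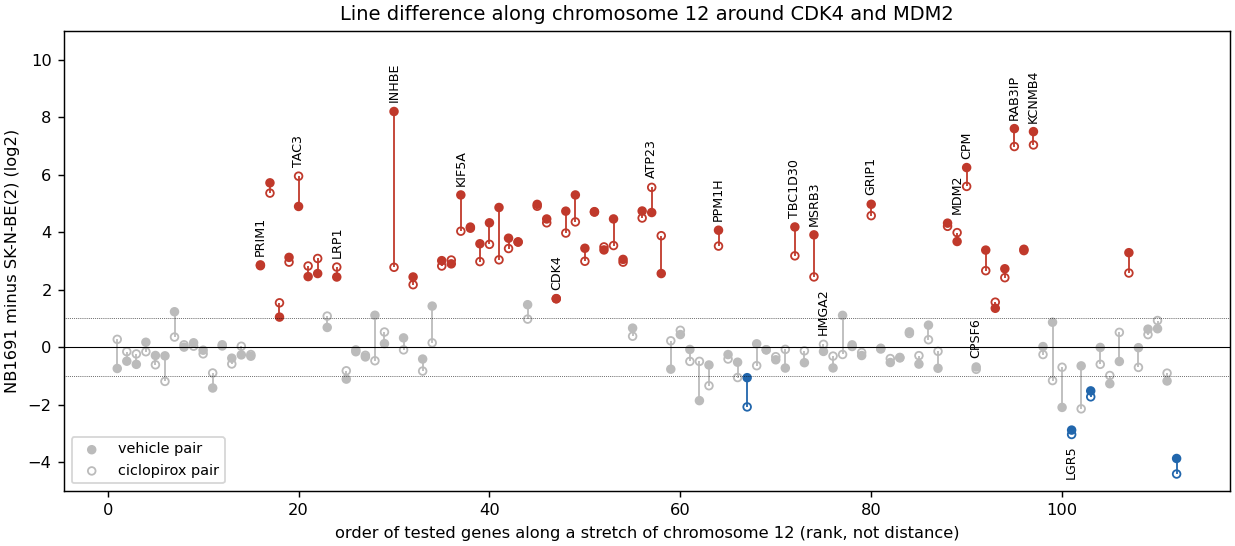
Line difference (NB1691 minus SK-N-BE(2), log2, y axis) of tested genes along part of chromosome 12 in annotation order (x axis, rank and not distance). Filled circles are the vehicle pair and open circles the ciclopirox pair of the same gene, joined by a line; red genes were at least 2-fold higher in NB1691 in both pairs and blue ones in SK-N-BE(2). Blocks of red genes from PRIM1 to ATP23 and around MDM2 alternate with genes near 0, such as HMGA2 and CPSF6.

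Several known transcriptional targets of p53 were higher in NB1691 as well. Of 31 tested targets, 13 were called higher in NB1691 and none in SK-N-BE(2), 9 were at least 2-fold higher in both pairs, and the median difference was 1.08 (0.77 in the vehicle pair and 1.41 in the ciclopirox pair). The count moved with single arrays: 7 were called without NB1691 ciclopirox, 8 without SK-N-BE(2) ciclopirox, 9 without SK-N-BE(2) vehicle and 16 without NB1691 vehicle. The median was 0.71 without NB1691 ciclopirox and between 0.92 and 1.47 without any of the others. CDKN1A, the p21 inhibitor of cyclin-dependent kinases, read 9.17 and 10.89 in NB1691 and 5.58 and 6.90 in SK-N-BE(2). Each NB1691 array lay above both SK-N-BE(2) arrays, with a difference of 3.79 (SE 0.48, limma adjusted p = 0.00355). SPATA18, which acts in mitochondrial quality control, read 9.02 and 7.94 against 5.40 and 4.14, a difference of 3.71 (SE 0.25, adjusted p = 0.000395). GDF15, a secreted stress hormone of the TGF-beta family, read 7.83 and 12.19 against 3.36 and 7.65, so it moved with ciclopirox in both lines while the line difference stayed at 4.48 and 4.54. Its call (SE 0.79, adjusted p = 0.011) was lost without NB1691 ciclopirox (adjusted p = 0.0623) and without SK-N-BE(2) vehicle (adjusted p = 0.0784). The other 2-fold targets were MDM2 itself, DDB2, ZMAT3, TNFRSF10B, RRM2B and TP53INP1.

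Among 20 tested G1 cyclins, kinases and inhibitors, 4 met the 2-fold rule, all higher in NB1691: CDKN1A, CDK4, CDKN2D and CDKN1C. The last pair were lost from the calls in refits, CDKN2D (2.42 and 1.25) without either SK-N-BE(2) array (adjusted p = 0.103 and 0.0748) and CDKN1C (1.48 and 1.03) without NB1691 vehicle, SK-N-BE(2) vehicle or SK-N-BE(2) ciclopirox (0.163, 0.124 and 0.214). Of 44 DNA replication genes 1 was 2-fold higher in each line, PRIM1 from the chromosome 12 stretch and GINS4, and of 38 mitosis genes 1, the kinase AURKB (1.17 and 2.31). Over all tested genes 8.12% were 2-fold higher in NB1691 and 6.12% in SK-N-BE(2). The AURKB call was lost without NB1691 ciclopirox (adjusted p = 0.0802) and without SK-N-BE(2) ciclopirox (adjusted p = 0.107). The mitosis list had a median of 0.03 in the vehicle pair and 0.97 in the ciclopirox pair. No cytosolic ribosomal protein gene of 40 tested was called or 2-fold apart, and RPL8 read 13.13 and 13.09 in NB1691 and 12.68 and 12.73 in SK-N-BE(2).

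**Figure D4:**
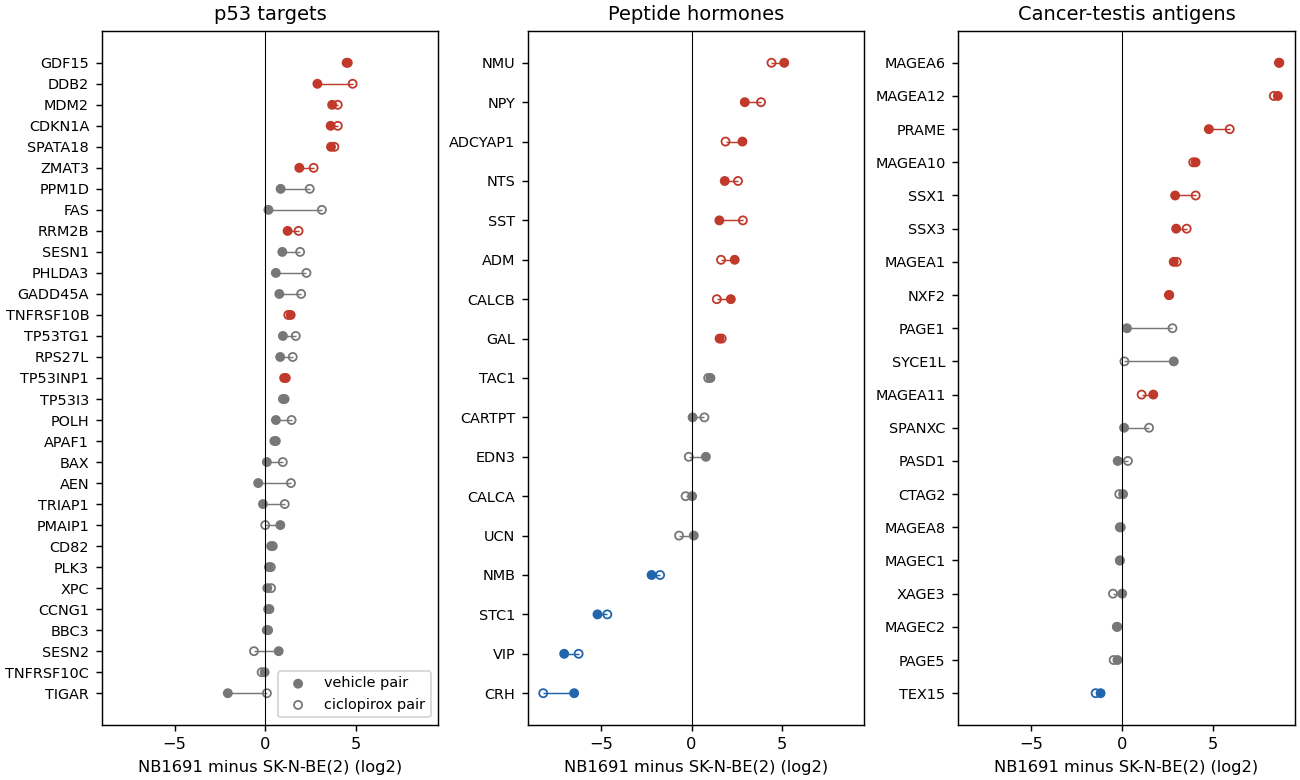
Line difference (NB1691 minus SK-N-BE(2), log2, x axis) of every tested p53 target, peptide hormone and cancer-testis gene, in the vehicle pair (filled) and the ciclopirox pair (open). Colours mark genes at least 2-fold higher in NB1691 (red) or in SK-N-BE(2) (blue) in both pairs. The 9 coloured p53 targets are all red, the hormones run from CRH at the bottom to NMU at the top, and most grey cancer-testis genes lie near 0.

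The neighbourhood of MYCN on chromosome 2 leaned towards SK-N-BE(2). Of 34 tested neighbours 9 were called higher in SK-N-BE(2) and 3 in NB1691, with a median of -0.54, and the count of 9 became 5 without SK-N-BE(2) vehicle and 3 without SK-N-BE(2) ciclopirox, where the median was -0.35. MYCNOS, the antisense transcript of MYCN, read 9.90 and 9.26 in SK-N-BE(2) and 7.64 and 7.09 in NB1691, a difference of -2.21 (SE 0.21, limma adjusted p = 0.00136), although its 1 other probe set did not share the sign. DDX1, an RNA helicase gene often carried along with MYCN, went the other way. It read 13.58 and 13.65 in NB1691 and 11.97 and 11.80 in SK-N-BE(2), a difference of 1.73 (SE 0.21, adjusted p = 0.00326). KCNS3, a potassium channel modifier, was higher in NB1691 still more, with 7.21 and 7.45 against 3.21 and 2.97. The receptor tyrosine kinase ALK, mutated in part of neuroblastomas, read 6.54 and 6.80 against 6.79 and 6.47, and those arrays overlapped between the lines. LIN28B, a blocker of let-7 maturation, read 9.79 and 9.62 against 11.27 and 10.97, a difference of -1.41 (SE 0.29, adjusted p = 0.0179). That call was lost in each refit without 1 array, with p between 0.072 (without NB1691 vehicle) and 0.108 (without SK-N-BE(2) vehicle), 0.0747 without NB1691 ciclopirox and 0.0863 without SK-N-BE(2) ciclopirox.

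The sympathoadrenal programme was present in both lines, and a minority of its core transcription factors differed by at least 2-fold. Of 24 tested core transcription factors, 6 were at least 2-fold higher in SK-N-BE(2) (SIX3, DACH1, MEIS2, LMO3, INSM2 and KLF7) and 2 in NB1691 (INSM1 and MEIS1), with a median of -0.32, which became -0.20 without NB1691 ciclopirox, -0.62 without SK-N-BE(2) vehicle and -0.01 without SK-N-BE(2) ciclopirox. The fit called 9 and 3, but refits without NB1691 vehicle, NB1691 ciclopirox, SK-N-BE(2) vehicle and SK-N-BE(2) ciclopirox called 5, 4, 4 and 3 genes in the first direction and 2, 1, 1 and 2 in the second. INSM1, a zinc finger factor of endocrine differentiation, read 10.13 and 9.04 in NB1691 and 5.69 and 5.10 in SK-N-BE(2). SIX3, a homeobox factor, read 7.71 and 7.99 in SK-N-BE(2) and 5.11 and 4.80 in NB1691. The differences were 4.19 (SE 0.21, limma adjusted p = 0.000169) for INSM1 and -2.90 (SE 0.22, adjusted p = 0.00059) for SIX3, so these 2 factors lay far apart in opposite directions.

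The vesicular monoamine transporters were exchanged between the lines. SLC18A2, the neuronal form VMAT2, read 10.22 and 10.62 in NB1691 and 7.23 and 7.44 in SK-N-BE(2), a difference of 3.08 (SE 0.21, limma adjusted p = 0.000409). SLC18A1, the chromaffin cell form VMAT1, read 6.41 and 6.45 against 10.07 and 10.16, a difference of -3.68 (SE 0.16, adjusted p = 0.000116). The noradrenaline reuptake transporter SLC6A2 read 8.45 and 8.63 in NB1691 and 11.19 and 11.58 in SK-N-BE(2), and all 4 of its other probe sets shared the sign. Its call (-2.84, SE 0.46, adjusted p = 0.00882) was lost without SK-N-BE(2) ciclopirox (adjusted p = 0.0614). MAOA, which oxidises monoamines, read 11.45 and 10.23 against 7.54 and 6.91, and its call (3.62, SE 0.58, adjusted p = 0.00829) was lost without the same array (adjusted p = 0.0682). Carboxypeptidase E (CPE), which trims prohormones, was higher in NB1691 with 10.23 and 10.35 against 6.82 and 6.07. Of 24 tested genes of catecholamine handling and secretory granules, 3 were 2-fold higher in NB1691 and 5 in SK-N-BE(2) (SLC18A1, SLC6A2, VGF, SCG5 and CYB561). The shares over all tested genes were 8.12% and 6.12%, and the list median was -0.01.

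Peptide hormones were divided between the lines. Of 17 tested, 8 were at least 2-fold higher in NB1691 (NMU, NPY, ADCYAP1, NTS, ADM, GAL, SST and CALCB) and 4 in SK-N-BE(2) (CRH, VIP, STC1 and NMB), with a median of 0.98. That median was 0.34 without SK-N-BE(2) vehicle, 0.49 without NB1691 ciclopirox and 1.56 without SK-N-BE(2) ciclopirox. The fit called 6 and 4, and the count of 4 became 2 without NB1691 ciclopirox and 2 without SK-N-BE(2) vehicle. CRH, the corticotropin-releasing hormone, read 9.75 and 11.68 in SK-N-BE(2) and 3.28 and 3.5 in NB1691. VIP, vasoactive intestinal peptide, read 9.60 and 8.97 against 2.59 and 2.74. Both were near background in NB1691, but VIP was high in SKNAS (mean 11.73) and CRH was not (4.94). NMU, neuromedin U, read 8.96 and 8.41 in NB1691 and 3.85 and 4.0 in SK-N-BE(2). The differences were -7.32 (SE 0.51, limma adjusted p = 0.000427) for CRH, -6.62 (SE 0.26, 0.000102) for VIP and 4.76 (SE 0.32, 0.000395) for NMU. STC1, a secreted glycoprotein, read 8.08 and 9.19 against 2.90 and 4.55, and its call (-4.91, SE 0.99, adjusted p = 0.0175) was lost without NB1691 ciclopirox (adjusted p = 0.0979) and without SK-N-BE(2) vehicle (adjusted p = 0.114). The tachykinin TAC3, part of the chromosome 12 stretch, read 12.22 and 12.58 in NB1691 and 7.32 and 6.63 in SK-N-BE(2).

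Cell adhesion genes were split, with more of them higher in SK-N-BE(2). Of 39 tested cadherins and protocadherins, 12 were at least 2-fold higher in SK-N-BE(2) and 5 in NB1691, with 15 and 5 called (11 to 12 and 4 to 6 in refits without 1 array) and a median of -0.44. PCDH7 read 7.86 and 8.30 in SK-N-BE(2) and 3.11 and 3.20 in NB1691, and PCDH9 read 8.65 and 9.25 against 3.95 and 3.89. In the other direction PCDHB5, of the clustered protocadherins, read 8.41 and 8.39 in NB1691 and 3.12 and 3.15 in SK-N-BE(2), and FAT1, a giant cadherin, read 7.16 and 8.08 against 2.83 and 3.14. Clustered protocadherins are close relatives of each other, so their separate levels are uncertain. Of 55 tested genes of neural adhesion and axon guidance, 18 were 2-fold higher in SK-N-BE(2) and 9 in NB1691, with 16 and 11 called. The list median was -0.37, with -0.09 in the vehicle pair and -0.74 in the ciclopirox pair. Its lean towards SK-N-BE(2) was thus mostly in the ciclopirox pair. In refits without 1 array that median ran from -0.81 (without SK-N-BE(2) vehicle) to -0.09 (without SK-N-BE(2) ciclopirox).

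The semaphorins SEMA3C, SEMA3A and SEMA3E, secreted guidance cues, fell into a run of 7 neighbours on chromosome 7 that were all at least 2-fold higher in SK-N-BE(2), the longest run in that direction. It also held HGF, the ligand of MET, with CACNA2D1, PCLO and ELAPOR2. HGF read 7.58 and 8.26 in SK-N-BE(2) and 3.09 and 2.40 in NB1691, a difference of -5.18 (SE 0.35, limma adjusted p = 0.00039), and all 4 of its other probe sets shared the sign. SEMA3C read 6.10 and 6.70 against 3.89 and 3.34, and SEMA3A 6.06 and 6.04 against 3.92 and 3.92. HGF and SEMA3C were higher still in SKNAS, at means of 11.74 and 9.49.

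Receptor tyrosine kinases and their ligands also divided. Of 46 tested, 8 were 2-fold higher in NB1691 (KIT, MET, PDGFC, GFRA1, FGFR2, DDR1, FGF2 and ERBB2) and 9 in SK-N-BE(2) (HGF, EFNB2, GFRA3, ROR2, NRTN, IGF1R, PTN, PDGFRB and KITLG). The shares over all tested genes were 8.12% and 6.12%, and the list median was -0.11. The fit called 9 and 11, and the count of 11 became 6 without SK-N-BE(2) ciclopirox. KIT, the receptor of stem cell factor, read 7.35 and 6.29 in NB1691 and 3.13 and 2.81 in SK-N-BE(2), a difference of 3.85 (SE 0.32, limma adjusted p = 0.0008). GFRA3, the artemin co-receptor, read 7.42 and 6.89 in SK-N-BE(2) and 3.03 and 3.10 in NB1691, a difference of -4.08 (SE 0.23, adjusted p = 0.000213). KIT was near background in both SKNAS lines (2.90 and 2.87), and so was GFRA3 (3.03 and 2.91), which makes each a gene of 1 line in this series. Such a gene passed the level filter only through the line where it was high.

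Wnt and Notch genes moved in both directions. LEF1, already described, led the 10 of 40 tested Wnt genes that were 2-fold higher in SK-N-BE(2), against 6 in NB1691. Over all tested genes the shares were 6.12% in SK-N-BE(2) and 8.12% in NB1691. PRICKLE1, of the planar polarity branch, read 10.32 and 9.99 in SK-N-BE(2) and 4.22 and 5.51 in NB1691, a difference of -5.29 (SE 0.70, limma adjusted p = 0.00432), with all 3 other probe sets sharing the sign. Of 25 tested Notch genes 5 were 2-fold higher in NB1691 and 6 in SK-N-BE(2). DNER, a Notch-related neuronal receptor, read 7.17 and 7.73 in NB1691 and 2.43 and 2.88 in SK-N-BE(2). HES1, a direct Notch target that represses neuronal genes, read 6.0 and 6.18 in SK-N-BE(2) and 3.08 and 2.94 in NB1691, and averaged 8.35 in SKNAS. The Notch feedback inhibitor NRARP (-3.13 and -2.76) and the co-activator MAML2 (-3.89 and -4.20) were higher in SK-N-BE(2) like HES1. In that direction 6 Notch genes were called, and 6 in every refit without 1 array, while the count of 6 in the other direction became 2 without SK-N-BE(2) vehicle.

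Among matrix genes NID1, a basement membrane linker, read 7.81 and 8.01 in NB1691 and 2.73 and 2.74 in SK-N-BE(2). COL1A1, the main chain of type I collagen, read 8.40 and 7.54 against 5.02 and 4.03. DCN, the proteoglycan decorin, went the other way with 9.10 and 8.12 in SK-N-BE(2) and 3.10 and 2.93 in NB1691. Each of these genes was higher in SKNAS than in either line, with means of 10.75, 12.37 and 11.31. Only 1 of the 3 other probe sets of COL1A1 shared its sign, whereas those of NID1 (2 of 2) and DCN (3 of 3) did. Of 40 tested collagens and basement membrane genes 5 were 2-fold higher in NB1691 and 3 in SK-N-BE(2), with a median of 0.05. Over all tested genes the shares were 8.12% and 6.12%. The BMP ligand BMP7 read 11.33 and 10.90 in NB1691 and 8.20 and 7.72 in SK-N-BE(2), a difference of 3.16 (SE 0.23, limma adjusted p = 0.000532).

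Some neurotransmitter receptor genes were high in 1 line alone. Of 62 listed receptors and transporters on the array, 40 passed the level filter, which used the mean over all arrays. A gene at background in the other lines was tested only because 1 line raised its mean. The filter thus favours such genes, and their number is no trait of this list. Of 40 tested receptors and transporters, 9 were 2-fold higher in NB1691 and 6 in SK-N-BE(2), with 10 and 6 called (8 to 9 and 4 to 5 in refits without 1 array). CHRNA9, a nicotinic receptor subunit, read 9.18 and 8.59 in NB1691 and 3.17 and 3.48 in SK-N-BE(2). GABRA5, a GABA-A receptor subunit, read 7.56 and 7.81 against 2.76 and 2.62. A different GABA-A subunit, GABRB1, read 6.62 and 6.58 in SK-N-BE(2) and 2.90 and 2.98 in NB1691. None of these rose above a mean of 3.34 in SKNAS or SKNAS/shHIF1a. NPY2R, a receptor of neuropeptide Y, read 7.68 and 8.19 in SK-N-BE(2) and 2.70 and 2.40 in NB1691, a difference of -5.39 (SE 0.59, limma adjusted p = 0.00228), while its ligand NPY was on the list of hormones higher in NB1691. Of 50 synaptic and neuronal cytoskeleton genes 10 were 2-fold higher in NB1691 and 8 in SK-N-BE(2), and the neuroligins NLGN4X (6.95 and 6.31) and NLGN1 (3.18 and 2.96), postsynaptic adhesion proteins, were both in the first group.

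The HOX genes, which give cells their position along the body axis, showed a divided code. Of 30 on the array, 20 passed the level filter, which favours genes high in some line. The counts therefore cannot be set directly against the shares of all tested genes. Of the 20 tested, 5 were 2-fold higher in SK-N-BE(2) (HOXD13, HOXC10, HOXC9, HOXC5 and the HOXC antisense transcript HOTAIR) and 3 in NB1691 (HOXD4, HOXD8 and HOXD9). The fit called 8 and 3, and the count of 8 became 5 without either SK-N-BE(2) array. HOXC10 read 6.23 and 6.09 in SK-N-BE(2) and 3.01 and 3.5 in NB1691, and HOTAIR read 5.83 and 6.50 against 3.29 and 2.76. Both lay near background in SKNAS (2.57 and 2.74). HOXD4 read 5.76 and 6.23 in NB1691 and 3.58 and 3.38 in SK-N-BE(2), and its call (2.51, SE 0.45, limma adjusted p = 0.0115) was lost without SK-N-BE(2) vehicle (adjusted p = 0.0818) and SK-N-BE(2) ciclopirox (adjusted p = 0.0623).

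Imprinted genes gave large single differences in both directions. MEST read 10.57 and 9.87 in NB1691 and 4.02 and 4.09 in SK-N-BE(2), a difference of 6.17 (SE 0.30, limma adjusted p = 0.000153), whereas PEG10, described above, had the reverse pattern although both are paternally expressed and lie on chromosome 7. GRB10, an adaptor that damps insulin receptor signalling, read 8.15 and 8.60 against 3.5 and 5.52. MEST and PEG10 were both high in SKNAS, at means of 11.06 and 10.38, so that the low line was NB1691 for PEG10 and SK-N-BE(2) for MEST. Of 24 tested imprinted genes 6 were 2-fold higher in NB1691 and 3 in SK-N-BE(2), against 8.12% and 6.12% of all tested genes.

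Among metabolic and drug-handling genes, LDHA, the lactate dehydrogenase subunit of glycolytic cells, read 12.54 and 12.92 in NB1691 and 9.29 and 8.82 in SK-N-BE(2). The difference was 3.67 (SE 0.25, 12.8-fold, limma adjusted p = 0.000401), and SKNAS averaged 13.23. The glucose transporter SLC2A3 read 5.46 and 6.66 in SK-N-BE(2) and 2.48 and 2.73 in NB1691. EPAS1, which encodes HIF-2 alpha, read 10.77 and 10.67 in SK-N-BE(2) and 7.42 and 7.01 in NB1691, and its call (-3.51, SE 0.61, adjusted p = 0.011) was lost without NB1691 ciclopirox (adjusted p = 0.0562) and without SK-N-BE(2) vehicle (adjusted p = 0.0802). HIF1A read 12.05 and 12.12 against 12.01 and 11.88, with a difference of 0.14 (SE 0.21, adjusted p = 0.681). Of 43 tested targets of hypoxia-inducible factors 5 were 2-fold higher in each line, against 8.12% (NB1691) and 6.12% (SK-N-BE(2)) of all tested genes. The median was -0.06. UGT8, which makes galactosylceramide, read 7.39 and 7.19 in NB1691 and 2.61 and 2.55 in SK-N-BE(2), and the glutathione transferase MGST2 read 8.27 and 7.56 in SK-N-BE(2) and 3.56 and 3.5 in NB1691.

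Of 23 tested antigen presentation genes 1 was 2-fold higher in each line, against 8.12% and 6.12% of all tested genes. ERAP1, the peptidase that trims peptides for MHC class I, read 7.67 and 8.19 in SK-N-BE(2) and 3.86 and 4.21 in NB1691, a difference of -3.89 (SE 0.17, limma adjusted p = 0.000116), with all 4 other probe sets sharing the sign. The nuclear DNA sensor IFI16 read 6.89 and 7.21 in SK-N-BE(2) and 2.53 and 2.70 in NB1691 and averaged 10.86 in SKNAS. Of 33 tested interferon-response genes 1 was 2-fold higher in NB1691 and 2 in SK-N-BE(2), with a median of 0.02. Counts this small do not set either list apart from all tested genes.

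Differences were uneven across chromosomes. On chromosome 17, 155 of 856 tested genes (18.1%) were 2-fold higher in NB1691 and 17 (1.99%) in SK-N-BE(2), and on chromosome 18 the shares were 16.3% and 0.493%. The X chromosome gave 17.3% and 3.42%, and chromosome 12 13.4% and 5.19%. Chromosome 5 leaned the other way with 5.82% and 11.2%. Over successive windows of 40 tested genes, the median difference of all genes in a window ranged from -0.84 to 1.21 across 362 windows. The first 8 windows of chromosome 17, up to NLE1, had medians from 0.60 to 1.21, and the remaining windows from 0.04 to 0.39. Within these windows lay a run of 7 neighbours, MAPK7, MFAP4, RNF112, SLC47A1, ALDH3A2, ULK2 and AKAP10. ULK2, an autophagy kinase, read 6.52 and 5.69 in NB1691 and 3.69 and 3.69 in SK-N-BE(2), and AKAP10, an anchor of protein kinase A, read 7.51 and 7.65 against 6.40 and 6.06. RNF112 met the rule (1.45 and 2.06) but was not called (limma adjusted p = 0.0709).

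The lowest window was the first of chromosome 1, from LOC440570 to NADK, with a median of -0.84. It held the run LINC02593, SAMD11, NOC2L and KLHL17, in which NOC2L, a histone acetylation inhibitor, read 8.23 and 7.59 in SK-N-BE(2) and 5.67 and 5.59 in NB1691. The first 3 windows of chromosome 16 had medians of -0.82, -0.55 and -0.54 and held the run METRN, ANTKMT, CCDC78 and HAGHL, in which METRN, a neurotrophic secreted factor, read 7.76 and 7.51 in SK-N-BE(2) and 4.80 and 3.85 in NB1691. In all, 35 runs of at least 3 neighbours with 137 genes were higher in NB1691 and 17 runs with 60 genes in SK-N-BE(2). Tandem relatives such as the MAGE-A genes count as neighbours in these runs. The position was taken from the RefSeq gene order, and 14484 of 14517 tested genes could be placed.

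**Figure D5:**
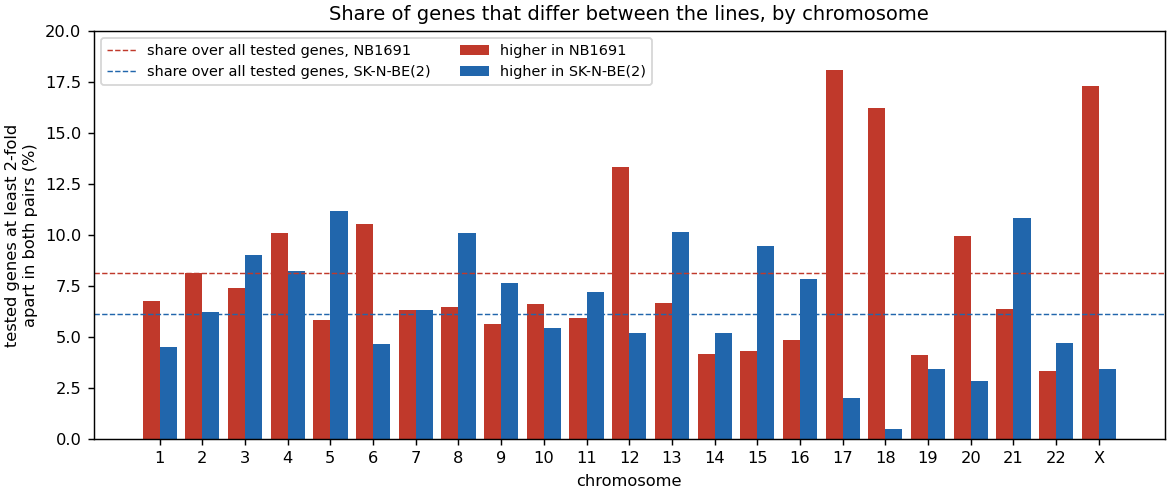
Share of tested genes (%, y axis, from 0) at least 2-fold higher in NB1691 (red) or in SK-N-BE(2) (blue) in both pairs, by chromosome (x axis). Dashed lines give the shares over all tested genes, 8.12% and 6.12%. Chromosomes 12, 17, 18 and X stand farthest above the red line, chromosomes 4, 6 and 20 less so, and chromosome 18 has almost no blue bar (0.493%).

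Arrays that the 2-fold rule did not use gave the levels of the same genes in the SKNAS lines. They did enter the level filter, which used the mean over all 8 arrays, so they are not outside the choice of genes. SKNAS lay nearer to NB1691 for 460 of the 1179 genes higher in NB1691 (39.0%) and for 387 of the 888 higher in SK-N-BE(2) (43.6%). High in NB1691 alone, with all 6 arrays of the other lines below the level filter, were 71 genes, against 11 for SK-N-BE(2). Such genes passed the filter only through the line where they were high, so these counts are descriptions. Besides MAGEA10, KIT and GABRA5 they included KCND3, a transient potassium channel that read 5.03 and 6.13 in NB1691 and 2.70 and 2.63 in SK-N-BE(2), and KRT5, a basal keratin that read 7.51 and 6.59 against 2.90 and 2.97. KRT5 and KRT19 were the 2 of 10 tested genes of a wider epithelial list that met the rule. The 11 of SK-N-BE(2) included GFRA3 and GABRB1. Conversely, 18 genes were below the filter in SK-N-BE(2) and at log2 6 or more on all 6 other arrays, among them SNX10 and NID1, and 15 genes were so in NB1691, among them VIP, DCN, HGF, IFI16, PCDH7 and HES1.

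Other probe sets of the same genes were also read, on the same arrays. Of the 575 genes higher in NB1691 with further probe sets, 426 (74.1%) had all of them on the same side in both pairs. The same held for 371 of 470 (78.9%) of those higher in SK-N-BE(2). Over all 7177 tested genes with further probe sets the share was 47.5%. That set includes genes with small differences or with pairs of opposite sign. The genes above were chosen for large differences of the same sign on these arrays, so a higher share could follow from the choice. The gap between the shares is therefore no independent support. In 66 genes higher in NB1691 and 37 higher in SK-N-BE(2) no other probe set shared the sign, and the difference of such genes rests on 1 probe set.

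The vehicle and ciclopirox pairs are separate arrays of the same lines. Of 3129 genes at least 2-fold apart in the vehicle pair, 66.1% were so the same way in the ciclopirox pair, and of 3369 in the ciclopirox pair 61.4% in the vehicle pair. Across all tested genes, which are not independent replicates, the 2 differences had a Pearson r of 0.847 and a Spearman rho of 0.718. The gap between the pairs had a median size of 0.41 among the 2067 genes. At the limit itself, CPED1 (-1.0 and -1.10), SLC39A10 (-1.0 and -1.02) and WSB1 (1.27 and 1.00) were just inside, and MPC1 (-1.24 and -1.0), SNHG19 (1.39 and 1.00) and TEAD3 (1.00 and 1.31) just outside before rounding. In 8 genes both pairs differed by at least 2-fold with opposite signs.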

How the data were processed

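Total RNA of 4 human neuroblastoma lines, each with vehicle and with ciclopirox, was hybridised to 8 Affymetrix arrays. The deposited values are log2 signals that the authors made with RMA, per the submitters' processing notes; no version is given in the sources used here. Array medians lay between 3.47 and 3.52, and no further scaling was applied. Of 54715 probe sets, 40914 carried exactly 1 symbol, 864 several and 12835 none, and 102 were controls. Each of 19774 genes was represented by its brightest probe set, and genes with a mean of at least log2 3.21, below which 40% of probe sets lie, entered the test (14517 genes) in limma 3.58.1 (R 4.3.3): line and treatment as terms, all 8 arrays, Benjamini-Hochberg adjustment over all tested genes, two-sided, threshold 0.05. With 1 array per line and treatment there is no test of interaction between these lines, and the number of arrays limits the precision. The script was tested on simulated data with 50 changed genes of each size. It recovered 6% of 2-fold, 76% of 4-fold, 86% of 8-fold and 94% of 16-fold differences. A gene that was not called may therefore still differ by 2-fold.

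The treatment pairs the arrays of the lines. The comparison, the members and the 42 gene lists were chosen with earlier results of these data known, so list counts are descriptions and no set test was run. Named genes were the 15 largest per direction among genes both called and at least 2-fold apart, up to 4 per list by the same 2 conditions (otherwise the 2 largest), a fixed set of known neuroblastoma and p53 genes, the members of the 5 longest runs per direction, the 5 largest of opposite sign and the 3 on each side of the limit. Genes of the chromosome 12 stretch are named for its full course and list members in full counts, and CSAG3 and INHBE were singled out after their values were seen. Promoter windows came from RefSeq on GRCh38.p14. The arrays' genome build was not used, and genes are placed by order only. Some genes are not reported here. Alternatives covered the arrays in the fit, the terms, the weights, the filter, the choice of probe set, the scaling and the limits.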

Additional observations from a re-analysis of the deposited data

Results flagged for a closer look

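In 5 genes the lines were apart by at least 2-fold in opposite directions in the 2 pairs, chosen as the largest such cases; with 1 array per line and treatment the difference between the pairs was not tested, and none was called by the fit. SETD4, a SET domain methyltransferase, differed by -1.60 in the vehicle pair and 1.72 in the ciclopirox pair, and SLC12A3, a sodium chloride cotransporter, by 2.57 and -1.59. IGFBP3, a binding protein of insulin-like growth factors, read 6.53 and 4.56 in NB1691 and 5.35 and 6.99 in SK-N-BE(2), giving 1.19 and -2.43. AJUBA, a LIM domain protein, differed by 1.12 and -1.83. MCHR1, a receptor of melanin-concentrating hormone, read 4.88 and 8.34 in NB1691 and 5.96 and 5.22 in SK-N-BE(2), giving -1.08 and 3.13. Whether other probe sets of these 5 genes repeat the opposite signs was not tested.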

How the results depend on the processing

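The treatment, which pairs the arrays of the lines, is a term of the model, and without it 1479 and 1318 genes were called (NB1691 first, here and below). Called counts moved by over 1.5 times when every probe set was tested on its own (2898 and 3038), at a threshold of 0.01 (889 and 674) and, for SK-N-BE(2), with array weights (1148). Leaving out single arrays gave 948 to 1494 and 653 to 1397. Counts of genes at least 2-fold apart in both pairs became 1830 and 1581 over every probe set, 2009 and 1825 at 1.5-fold and 482 and 259 at 4-fold, 1830 for NB1691 in the vehicle pair alone and 1638 for SK-N-BE(2) in the ciclopirox pair alone. In the other alternatives run, these counts stayed within 1.5 times. Of 210 called named genes, none changed sign; 8 were no longer called with the mean of probe sets and 7 more were not tested there, 2 after quantile normalization and 20 to 39 without single arrays. Among the named genes, signs turned only in those that the fit on all arrays did not call. Over all tested genes, 1 gene called higher in NB1691 was called higher in SK-N-BE(2) with the mean of probe sets. With the mean of probe sets the difference was -0.17 for ALK, -0.070 for MYC and -0.27 for SETD4. Without single arrays it ran from -1.89 to 1.18 for AJUBA, -0.33 to 0.41 for ALK, -0.069 to 0.35 for HIF1A, -2.63 to 1.39 for IGFBP3, -0.96 to 3.0 for MCHR1, -0.48 to 0.52 for MYC, -1.51 to 1.63 for SETD4 and -0.92 to 1.89 for SLC12A3. Without NB1691 ciclopirox, IGFBP3 (1.39) and SETD4 (-1.51) were called (limma adjusted p = 0.0396 and 0.017). The cause was not tested. List medians of small size also moved without single arrays: from -0.42 to 0.15 for catecholamine genes, -0.27 to -0.0033 for receptor tyrosine kinases, -0.039 to 0.13 for collagens, -0.23 to -0.060 for hypoxia targets, -0.074 to 0.040 for interferon-response genes and -0.51 to -0.40 for cadherins. Levels near log2 3 are background, so differences of genes there are limited by it.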
